A study of Harpegnathos saltator with 18 samples.

Results

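The genes described here were 64 gene models of the ant Harpegnathos saltator that were abundant at similar levels in the non-visual brain, the optic lobe and the retina and scarce in fat body and ovary. They were chosen from the mean RPKM (reads scaled for the length of the gene model and the total of the library) of these 5 tissues. A member had 10 RPKM or more in each of the first 3, called neural tissues here. Those 3 means were less than 3-fold apart, and the lowest of them was at least 8 times the higher mean of fat body and ovary. The rule held for 64 of 20317 HSALG rows, in a table of 20755 rows. The values of these 5 tissues therefore chose the genes and are given as a description. Antenna was not used by the rule, and the tests below are on antenna.

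Neurons of the brain and photoreceptor cells of the retina are both excitable cells, and they share the proteins of membrane signalling and transmitter release. The insect antenna also carries neurons, because the cell bodies of the olfactory receptor neurons lie in the antenna and send axons to the brain. The fat body is the organ of storage and metabolism, and the ovary is made mainly of germ cells and follicle cells. The identifiers carry no gene names (0 of 20755 matched the 14329 genes of the RefSeq table used for names), so no role can be given to a single member, and the word neural rests on the tissues alone.

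The study measured polyadenylated RNA in 6 tissues with 3 libraries each. Ovary came from gamergates, workers that have become egg layers, and the other 5 tissues came from workers. All were kept at 25 °C and 50% humidity with 12 hours of light and live crickets as food. The labels give no age, no number of animals per library and nothing on whether replicates are separate animals. The p-values below thus speak of variation among libraries alone, and it may be technical. Tissue and caste cannot be told apart in any comparison with ovary. In a bulk tissue, fewer cells of a type and less RNA per cell cannot be told apart either.

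Depth differed most between antenna and the rest. Library totals recovered from the RPKM steps were 2.37 to 4.73 M (mega) reads in antenna and 8.2 to 30.1 M in the other tissues. Reads in gene models made up 20.5 to 42.3% of these totals in antenna and 29.7 to 71.9% elsewhere. RPKM is scaled to the full total, so this share enters every level. For a model of 1000 bases, 3 reads correspond to 0.634 to 1.27 RPKM in the antenna libraries and to 0.0998 to 0.366 RPKM elsewhere. These limits cover counting error only. Antenna replicate 3 stood apart from the other antenna libraries. A list of 32 genes at 100 RPKM or more in retina and at least 30 times higher there than in brain, fat body and ovary had a median of 17.2% of its retina level in antenna replicate 3. The same median was 0.458% in replicate 1 and 2.79% in replicate 2. Counts that rest on antenna, and the tests of the genes named for antenna, are given below with and without replicate 3, a setting extended to more of these values after the data were seen.

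Within the neural tissues the 64 genes spanned a wide range of levels. The median member had a mean of 44.5 RPKM in non-visual brain, 52 RPKM in optic lobe and 37.5 RPKM in retina, against 1.62 RPKM in fat body and 0.706 RPKM in ovary. In 7 members the mean over the neural tissues was 100 RPKM or more, and in 12 members it was under 20 RPKM. Together the members took 1.53 to 2.16% of the RPKM of a brain library, 0.983 to 1.24% of a retina library, 0.774 to 1.29% of an antenna library and 0.019 to 0.0658% of a fat body or ovary library.

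**Figure D1:**
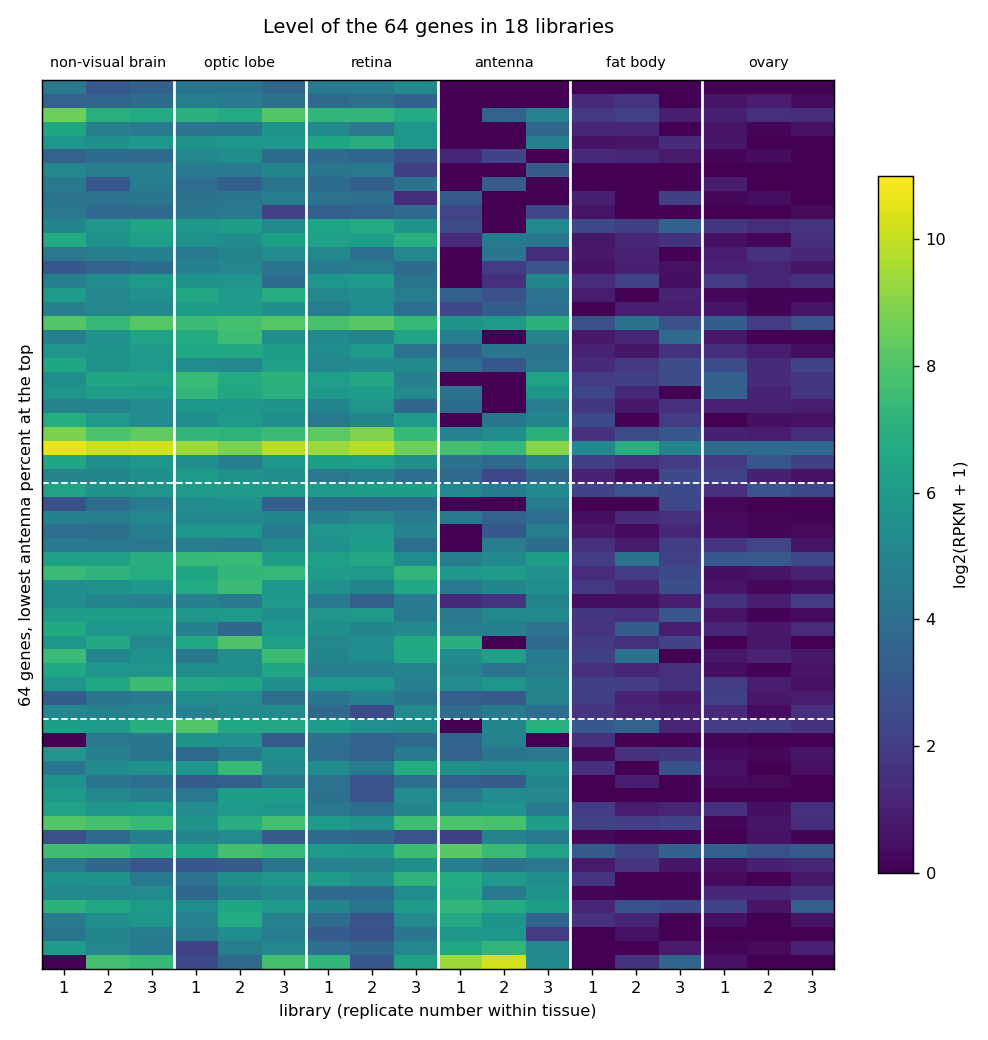
Level of each of the 64 genes (rows, ordered by the antenna mean as a percent of the lowest neural mean) in each of the 18 libraries (columns, by tissue and replicate), as log2(RPKM + 1). Dashed lines mark 50% and 100%. The first 9 columns are filled for nearly every gene, the antenna columns grade from empty at the top to filled at the bottom, and the fat body and ovary columns are pale throughout compared with the neural columns.

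The most abundant member was HSALG009428.1, with a gene model of 1848 bases. It stood at 1592, 1120 and 1228 RPKM in the non-visual brain libraries, at 645, 442 and 890 RPKM in the optic lobe libraries and at 642, 943 and 381 RPKM in the retina libraries. Non-visual brain lay above the other neural tissues in each library, and optic lobe and retina overlapped. Of all members it was also the highest in fat body (34.4, 122 and 29 RPKM) and in ovary (13.9, 13.4 and 12.7 RPKM), the only member with a mean of 10 RPKM or more in either. The second was HSALG007459.2, with 455, 234 and 318 RPKM in non-visual brain, 148, 136 and 182 RPKM in optic lobe and 302, 470 and 166 RPKM in retina. Its optic lobe libraries were below each non-visual brain library, and the retina libraries overlapped with both.

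At the other end were the 2 members with the lowest mean over the neural tissues. HSALG001545.2 stood at 20.1, 13.5 and 13.5 RPKM in non-visual brain, 19.2, 21.4 and 3.34 RPKM in optic lobe and 9.26, 10.5 and 13.3 RPKM in retina. HSALG005476.2 stood at 21.1, 6.98 and 23.3 RPKM, 14.1, 9.01 and 18.3 RPKM, and 13.8, 9.09 and 16.3 RPKM in the same order of tissues. The libraries of the 3 neural tissues overlapped for HSALG005476.2, whereas for HSALG001545.2 optic lobe overlapped with both others and retina lay just below non-visual brain.

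Retina was most often the lowest of the 3 neural tissues. Retina had the lowest mean in 39 members, non-visual brain in 13 and optic lobe in 12. The highest mean was in optic lobe for 28 members, in non-visual brain for 26 and in retina for 10. The highest of the 3 means exceeded the lowest by a median of 2.11-fold. It was under 1.5-fold in 10 members and 2-fold or more in 37. HSALG008082.2, singled out after its values were seen, was among the most even, with 78.7, 49.9 and 52.1 RPKM in non-visual brain, 62.3, 64.3 and 66.6 RPKM in optic lobe, and 61.7, 70 and 68.9 RPKM in retina.

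Each neural tissue also had a member that leaned towards it. HSALG020707.1 stood at 48.2, 18.8 and 15.3 RPKM in non-visual brain, where its mean was 2.14 times the next. HSALG027746.1 stood at 28.3, 29.3 and 42.8 RPKM in retina, 2.55 times the next tissue, and no library of either brain part reached its lowest retina library. HSALG025187.1 leaned towards optic lobe (2.56 times the next) through 47.5 and 45.9 RPKM in replicates 1 and 2, while replicate 3 was at 8.28 RPKM. Only for HSALG027746.1, of these 3 genes, were the libraries of the favoured tissue clear of the others.

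The limits of the rule cut through a continuum. At the limit of 10 RPKM, HSALG024271.1 was just inside with 10.04 RPKM in retina, and HSALG014417.2 just outside with 9.22 RPKM in retina. At the limit of 3-fold, HSALG023056.1 had a highest mean 2.999 times the lowest and HSALG005721.2 had 3.01 times. At the limit of 8 times, HSALG021550.1 had 8.36 times the higher of fat body and ovary and HSALG012317.2 had 7.99 times.

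Membership was not equally firm for every gene. With the rule recomputed without 1 library of its 5 tissues at a time, 26 members met it in all 15 cases, 38 failed in at least 1 and 9 failed in 4 or more. The rule was also applied to the means of 2 replicates per tissue and read in the third. With replicate 1 held back it chose 63 genes, of which 21 met all limits in the libraries left out, and in 60 every neural library left out was above those of fat body and ovary. With replicate 2 held back these counts were 21 and 58 of 58, and with replicate 3 held back 13 and 36 of 38. In libraries that had not chosen them, most genes were thus higher in the neural tissues than in fat body and ovary, and a minority met every limit. Within a tissue, the median SD of log2(RPKM + 1) over members was 0.473 in non-visual brain, 0.588 in optic lobe and 0.653 in retina, against 0.421, 0.513 and 0.506 for all rows at 10 RPKM or more there. In antenna it was 1.02, against 1.09 for such rows.

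Most brain genes that were low in fat body and ovary were much lower in retina than the 64 were. Without its conditions on retina the rule held for 445 genes, and the 64 were 14.4% of them. Across the 445 genes the median retina level was 14.3% of the lower brain part, and 172 genes lay under 10%. For the 64 that median was 91.4%, as the rule requires. Read by library, the median of the 445 was 17%, 13% and 11.4% in retina replicates 1, 2 and 3, and that of the 64 was 97.4%, 80.3% and 97%.

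For antenna the quartiles of the 445 genes were 18% and 58.6% of the lower brain part, where those for retina were 5.71% and 43.9%. For the 381 genes outside the members the median antenna level was 31.4% of the lower brain part, and for the 64 members it was 47%. In each antenna library the median of the members was the higher of the 2, at 37.5%, 38% and 55.9% against 18.2%, 22.8% and 30.8%. An antenna mean under 33% (1 in 3) of the lower brain part was found for 31.2% of the members and for 53.8% of the others. Without antenna replicate 3 the medians were 34% for the members and 23.9% for the others, and the shares under 33% were 48.4% and 61.7%. These are descriptions of gene lists, and the difference between the lists was not tested. With antenna in place of retina, the rule would hold for 98 genes, of which 24 are members, and without antenna replicate 3 for 96 genes, of which 21 are members.

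**Figure D2:**
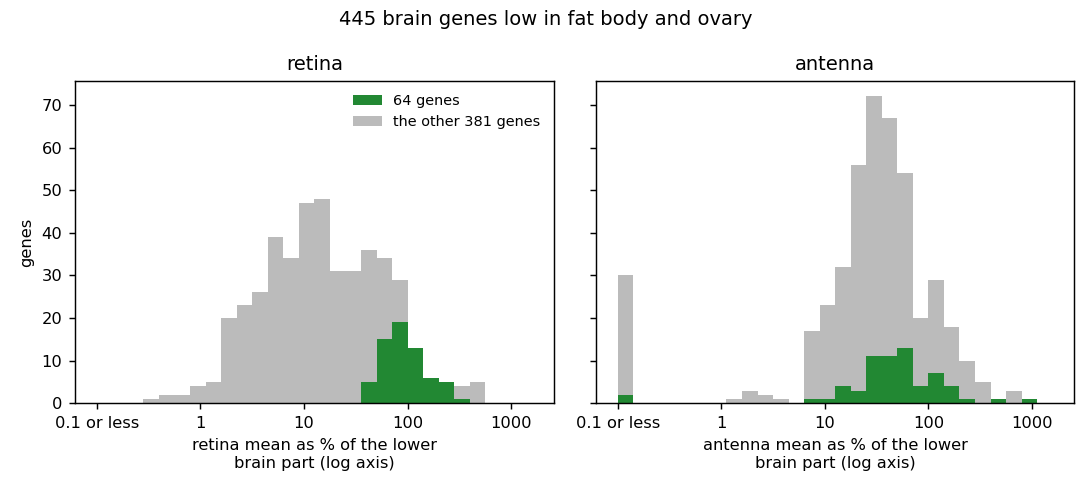
Mean RPKM in retina (left) and in antenna (right) as a percent of the lower of the 2 brain parts, on a log axis, for the 445 genes that meet the rule without its conditions on retina. Bars count genes, with the 64 members in green and the other 381 stacked in grey. Retina values spread broadly around a median of 14.3%, with the members at the right end by their choice, whereas antenna values form a main peak around a median of 32.7%.

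The main question on these genes was their level in antenna. The members' median antenna mean was 17.6 RPKM, between the neural tissues and fat body. As a percent of the lowest neural mean, the antenna mean had a median of 55.1% with quartiles of 34.6% and 105%. It was under 50% in 29 members, from 50% to under 100% in 17, and at 100% or more in 18. In 6 of these 18 it was above the highest neural mean. Retina was the lowest neural tissue in 12 of the 18, and 13 of the 18 were highest in retina replicate 3 among the retina libraries. Their median retina level was 18.9, 12.6 and 38.9 RPKM in replicates 1, 2 and 3, against 32.7, 31.9 and 34.7 RPKM over all 64. The retina level of these 18 thus leans on 1 library. In 62 members antenna was above the higher mean of fat body and ovary, and in 40 it was at least 8 times that mean. With antenna added to the rule as another neural tissue, 23 of the 64 would still meet it. Without antenna replicate 3 the median was 41.1% with quartiles of 21.9% and 103%, and 36, 9 and 19 members fell into the 3 ranges, 8 of them above the highest neural mean. In that setting 54 members were above the higher mean of fat body and ovary, 33 at least 8 times so, and 18 would meet the rule with antenna added.

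**Figure D3:**
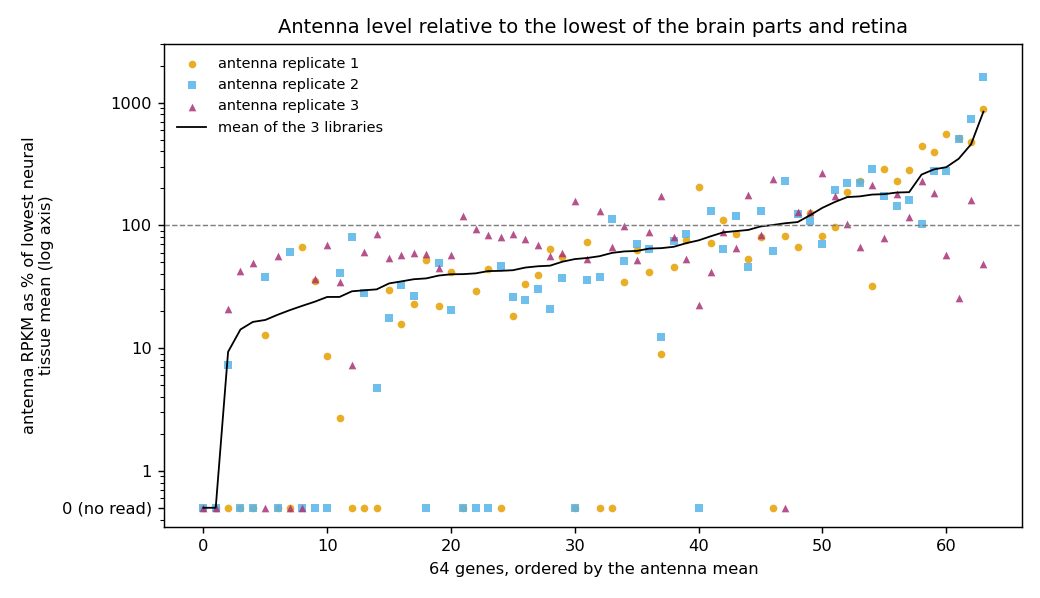
Antenna RPKM of each member as a percent of its lowest neural tissue mean, on a log axis, with 1 symbol per antenna library, a line for the mean of the 3 libraries, and libraries with no read at the bottom. The dashed line is 100%. Genes at the left have no read in replicates 1 or 2 more often than in replicate 3, and the symbols of 1 gene often lie far apart.

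Antenna was above both fat body and ovary for more than 1 member in 2. The test was limma, fitted once to log2(RPKM + 1) of all 18 libraries over 12996 rows, and a gene was called when the Benjamini-Hochberg adjusted p was under 0.05 and the difference at least 2-fold. The fit takes 1 spread per gene for all tissues, although libraries varied most in antenna. Its SEs and p-values for antenna may therefore be too small. All 64 members passed the filter on low values, which their neural levels ensure. By the larger of the 2 one-sided p-values, 37 of 64 members (57.8%) were higher in antenna than in both tissues, against 3.48% of all rows tested. Among the 381 other brain genes 131 (34.4%) were called. Without antenna replicate 3 the count was 34 members, 33 of them among the 37, and 3.86% of all rows. The rule had chosen the low side of this contrast, and nothing is read from the gap to the background.

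Taken 1 by 1, 38 members were higher in antenna than in fat body (6.73% of rows) and 42 were higher than in ovary (7.4% of rows). These counts were 37 (7.77% of rows) and 41 (7.66% of rows) without antenna replicate 3. A fit of antenna and fat body alone called 14 members in place of 38. With all libraries no member was lower than in fat body (6.82% of rows) or ovary (29.3% of rows) by limma, in which 0 members had an unadjusted p under 0.05 in that direction. By voom on recovered reads the counts lower were also 0, and without antenna replicate 3 there was 1 against each tissue. The rule had chosen genes low in fat body and ovary, which leaves most members little room for a lower antenna value. Nothing is therefore read from the counts of members lower in antenna here. The median log2 difference of members was 2.44 to fat body and 2.88 to ovary, where the median of all rows was 0 and -0.74. These comparisons share the antenna libraries.

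The highest antenna mean RPKM among members was that of HSALG016448.2, a short model of 303 bases, and it came from replicates 1 and 2. It stood at 677, 1230 and 36.9 RPKM in antenna replicates 1, 2 and 3, at 0, 2.04 and 10.9 RPKM in fat body and at 0.434, 0 and 0 RPKM in ovary. All antenna libraries were above all fat body and ovary libraries, but replicate 3 was far below the other 2. Its log2 difference was 6.58 to fat body (SE 1.77, adjusted p = 0.0166, limma) and 8.11 without antenna replicate 3 (adjusted p = 0.00342, limma). With 3 reads over the ovary libraries and 1887 over the antenna libraries, the ratio of pooled RPKM was 4193 (95% exact interval 1433 to 20352, counting error only). Its neural values were as uneven, at 0, 207 and 166 RPKM in non-visual brain, 4.39, 13 and 213 RPKM in optic lobe, and 150, 6.95 and 77 RPKM in retina. Antenna against the neural tissues did not pass the test (adjusted p = 0.175, 0.102 and 0.393 against non-visual brain, optic lobe and retina, limma; without antenna replicate 3 they were 0.0469, 0.0251 and 0.117), although its antenna mean was 844% of the lowest neural mean.

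HSALG024842.1 (333 bases) was more even, with 96.5, 147 and 32.6 RPKM in antenna. It stood at 65.2, 33.6 and 23.1 RPKM in non-visual brain, 3.36, 24.6 and 33.4 RPKM in optic lobe, and 15.4, 11.8 and 33.3 RPKM in retina. Fat body held 2 reads in all, and antenna 301 reads, a ratio of pooled RPKM of 581 (95% exact interval 159 to 4818, counting error only), and both fat body reads were in replicate 3. Its log2 difference to ovary was 5.81 (SE 0.73, adjusted p = 6.86e-06, limma) and 6.42 without antenna replicate 3 (adjusted p = 2.72e-06, limma). It was also the 1 member called higher in antenna than in optic lobe, by 2.33 on the log2 scale with an SE of 0.73 (limma adjusted p = 0.0177), although antenna replicate 3 lay within the optic lobe range. That call was lost, with a count of 0, at a pseudocount of 0.1, by voom, without optic lobe replicate 1 and in a fit of the 2 tissues alone, and 2 members were called without antenna replicate 3. HSALG027187.1 (873 bases) stood at 234, 224 and 67.9 RPKM in antenna and at 0.151, 0.533 and 1.72 RPKM in ovary, a gap of 6.51 on the log2 scale with an SE of 0.62 (limma adjusted p = 2.65e-07), or of 7.09 without antenna replicate 3 (limma adjusted p = 1.44e-07). In its neural tissues it was at 268, 214 and 164 RPKM in non-visual brain, 51, 115 and 211 RPKM in optic lobe, and 62, 49.9 and 194 RPKM in retina, so antenna overlapped with each of them.

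**Figure D4:**
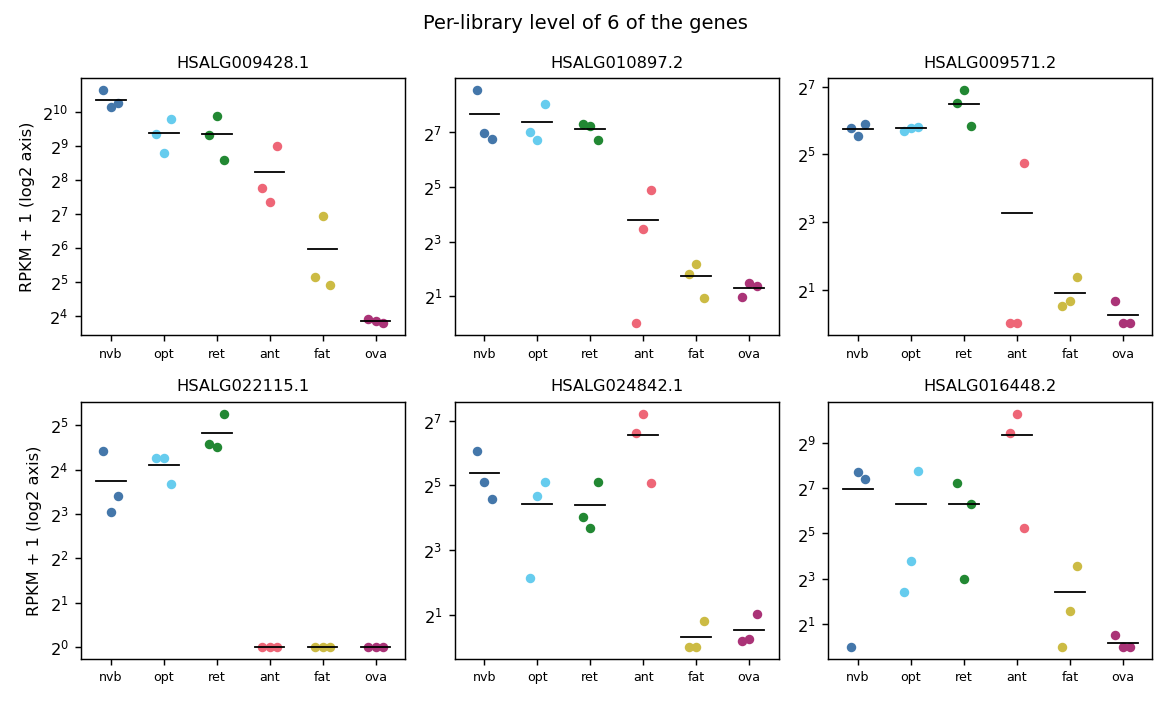
RPKM + 1 on a log2 axis for 6 members in non-visual brain (nvb), optic lobe (opt), retina (ret), antenna (ant), fat body (fat) and ovary (ova). Points are the 3 libraries of a tissue from replicate 1 on the left to replicate 3 on the right, and lines are tissue means. HSALG009428.1 falls in steps from brain to ovary, HSALG010897.2 and HSALG009571.2 are near 0 in some antenna libraries, HSALG022115.1 has no antenna read, and HSALG024842.1 and HSALG016448.2 are highest in antenna replicates 1 and 2.

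Against the neural tissues antenna was lower in many members, and lower values in antenna were also common among all rows. Antenna was called lower than non-visual brain in 29 members (45.3%, against 21.5% of rows), lower than optic lobe in 37 (57.8%, against 37% of rows) and lower than retina in 17 (26.6%, against 5.32% of rows). Among the 381 other brain genes the shares were 56.2%, 70.6% and 2.89%. The members' share was thus below that of the 381 for both brain parts, and these differences were not tested. For retina the 381 give no like comparison, since they are the genes that failed the conditions on retina. Of them, 358 failed through a low retina level. Without antenna replicate 3 the members' counts were 35 (33.1% of rows), 41 (47% of rows) and 29 (11.7% of rows). A fit of only the tissues compared called 4, 7 and 2 members, and without retina replicate 1 or 2 the count against retina was 9 or 8. It was called higher than non-visual brain in 0 members (2.65% of rows), than optic lobe in 1 (3.55% of rows) and than retina in 0 (2.81% of rows). Of members higher in antenna, 0 had an unadjusted p under 0.05 against non-visual brain and 3 against retina, and voom on recovered reads called 0 against each. Leaving out antenna replicate 3 gave 1, 2 and 3 members higher than non-visual brain, optic lobe and retina. The share of all rows called higher is not given for that setting, so nothing is read from these counts. The median log2 difference of members was -1.68, -1.75 and -1.30 to non-visual brain, optic lobe and retina, where the median was -0.90, -1.22 and -0.13 over all rows and -2.01, -2.42 and 0.67 over the 381 other brain genes. The rule had chosen the high side of these contrasts, and nothing is read from the gaps to all rows. The value of 0.67 to retina follows from how the 381 were chosen.

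Taking for each gene the weakest of its 3 one-sided tests, 7 members were lower in antenna than in each neural tissue (10.9%, against 1.46% of rows). Without antenna replicate 3 it was 25 members (39.1%, against 7.7% of rows), of which 5 were among the 7, and it was 4 without replicate 1 or 2 of optic lobe or of retina. The rule had chosen genes high in all 3 neural tissues, and nothing is read from the gaps to the background. No member was both above fat body and ovary and below each neural tissue with all libraries, and 5 were without antenna replicate 3. With all libraries 20 members were in neither group, and 18 of these 20 were called in at least 1 of the 5 single comparisons. Shares over all rows were not computed for the overlap of the groups or for these 20. Nothing is therefore read from those counts.

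The 7 members lower in antenna included 2 with no antenna read. HSALG022115.1 (300 bases) stood at 20.3, 7.24 and 9.58 RPKM in non-visual brain, 18.3, 18.2 and 11.8 RPKM in optic lobe, and 22.7, 21.7 and 37.3 RPKM in retina. It was at 0 in every antenna, fat body and ovary library. With 3 reads over the antenna libraries together as the floor (0.987 RPKM), its antenna level was lower than that of non-visual brain by a factor of at least 12.5 and at least 27.6-fold lower than in retina (adjusted p = 0.000466 for all 3 tissues jointly and 0.000244 without antenna replicate 3, limma). HSALG011176.2 (813 bases) stood at 10.4, 11.2 and 13.9 RPKM in non-visual brain, 25.9, 22.4 and 16.6 RPKM in optic lobe, and 12.4, 15.7 and 9.65 RPKM in retina. Its antenna level was at least 32.5-fold lower than that of non-visual brain, with a floor of 0.364 RPKM (adjusted p = 0.00053 jointly and 0.000289 without antenna replicate 3, limma), and stood at 1.51, 2.12 and 0 RPKM in fat body. At antenna depth these values allow low expression under the floor.

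Of the 5 with antenna reads, HSALG010897.2 and HSALG009571.2 had the smallest joint adjusted p-values, 0.0081 and 0.0116 (limma), and 0.00026 and 2.14e-06 without antenna replicate 3. HSALG010897.2 (681 bases) was at 374, 124 and 106 RPKM in non-visual brain, 129, 105 and 265 RPKM in optic lobe, and 157, 151 and 105 RPKM in retina. In antenna it was at 0, 9.92 and 28.5 RPKM, below every neural library. Its log2 difference was -4.64 to non-visual brain (SE 0.85, adjusted p = 0.000818), -4.49 to optic lobe (adjusted p = 0.000722) and -4.31 to retina (adjusted p = 0.00288), all by limma. HSALG009571.2 (309 bases) was at 53.4, 45.2 and 58 RPKM in non-visual brain, 51, 53.9 and 55.1 RPKM in optic lobe, and 90.9, 118 and 55.7 RPKM in retina. Its antenna libraries were at 0, 0 and 25.6 RPKM, again below every neural library, with a log2 difference of -4.84 to retina (SE 0.85, adjusted p = 0.00113, limma). The other 3 were HSALG021553.1, HSALG024271.1 and HSALG005476.2, with joint adjusted p-values of 0.0262, 0.0444 and 0.0459 (limma). They were 0.000226, 0.0509 and 0.0525 without antenna replicate 3, so the last 2 were no longer called. HSALG021553.1 had 24 antenna reads, all in replicate 3, and HSALG024271.1 had 40, in replicates 1 and 2. HSALG005476.2 had only 5 antenna reads, all in replicate 2. Its level there, 8 RPKM, was above its lowest non-visual brain library at 6.98 RPKM.

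HSALG029580.1 had the largest difference to optic lobe, at 175, 106 and 135 RPKM there and 0, 0 and 79.1 RPKM in antenna, a log2 change of -4.99 with an SE of 1.13 (limma adjusted p = 0.00272). All its antenna reads, 168 in number, were in replicate 3. That value lay within the retina range of 26.4 to 98.2 RPKM. It was not among the 7 genes lower than each neural tissue (joint adjusted p = 0.0836, limma), but was without antenna replicate 3 (joint adjusted p = 2.09e-05, limma).

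Read over all 64 members, antenna replicate 3 stood apart as well. The median percent of the lowest neural mean was 41.8% in replicate 1, 46.3% in replicate 2 and 66.3% in replicate 3. Of the members 32 were highest in replicate 3, 17 in replicate 2 and 15 in replicate 1. The 18 members with an antenna mean at 100% or more went the other way. Their medians were 231%, 206% and 128% in replicates 1, 2 and 3, and 4 of the 18 were highest in replicate 3. The summed level of all 64 was also lowest there, at 2864, 3171 and 2482 RPKM in the same order. The number with no read was 16 in replicate 1, 14 in replicate 2 and 6 in replicate 3, and 7 members had no read in both of the first 2. The library totals were 4.73, 2.37 and 3.04 M reads in the same order. Of these, 0.97, 0.586 and 1.28 M reads (20.5%, 24.8% and 42.3%) lay in gene models, so replicate 3 had the most reads there.

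Among lists of genes of other tissues, those of retina and fat body were clearly highest in antenna replicate 3. Those of ovary and brain did not set it apart. Besides the retina list, a list of 14 fat body genes chosen in the same way was at a median of 0%, 0.849% and 6.64% of its fat body level in antenna replicates 1, 2 and 3. In replicate 3 the 32 retina genes ranged from 3.71% to 74.8% with none at 0, while in replicates 1 and 2 they reached up to 144% and 146%, with 11 and 6 of them at 0. Their summed level in retina was 112597 to 200456 RPKM, and in antenna it was 2413, 4614 and 55732 RPKM. A list of 56 ovary genes had medians of 0%, 1.86% and 0%, highest values of 6.29%, 217% and 74.6%, and summed levels of 150, 4036 and 1992 RPKM. A list of 24 brain genes, at 10 RPKM or more in both brain parts and at least 30 times lower in retina, fat body and ovary was at 7.22%, 21.2% and 21.3%, with 8, 6 and 7 genes at 0, so for these genes the medians of replicates 2 and 3 were close. The part of RNA of other tissues in the members' antenna values was not tested.

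**Figure D5:**
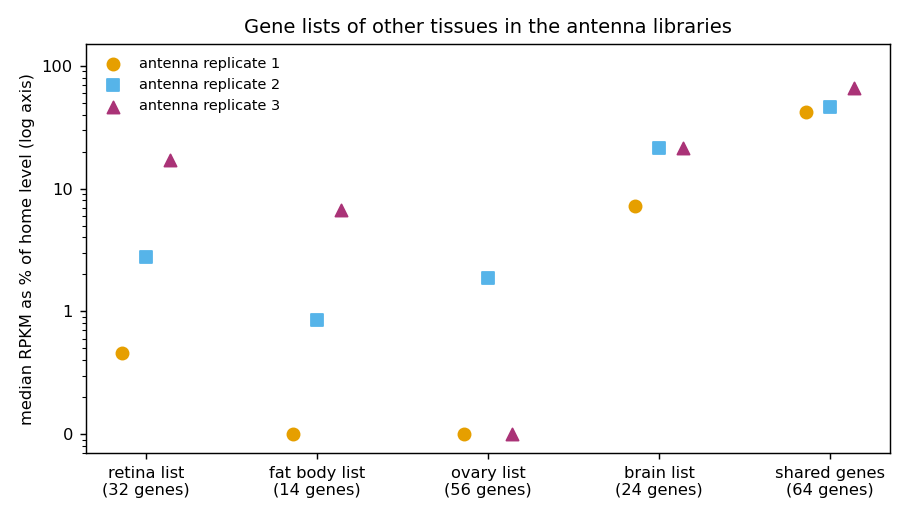
Median RPKM of 4 gene lists and of the 64 members (shared genes) in the 3 antenna libraries, as a percent of the level in their home tissue (for the members, of the lowest neural mean), on a log axis with 0 at the bottom. The retina and fat body lists are highest in replicate 3 (17.2% and 6.64%), while the members are at 41.8% or more in every library.

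Gene model lengths of the members were close to those of all HSALG rows tested, as a description without a test. The median length of the gene model was 866 bases over the 64 members and 966 bases over 12626 HSALG rows tested, and models under 500 bases made up 28.1% and 24.9%. Within the members, lengths differed by antenna level. The median was 708 bases for the 29 under 50% of the lowest neural mean. It was 1704 bases for the 17 from 50% to under 100%, and 469.5 bases for the 18 at 100% or more. Of the 64 lengths 63 were multiples of 3, as for coding sequences. They ran from 204 bases to 19215 bases in HSALG004379.2, which was named for its length after its values were seen. This longest model stood at 20.6, 31.9 and 43.5 RPKM in antenna and at 40.7, 49.9 and 58 RPKM in non-visual brain, and overlapped between these tissues. Because of its length it gathered 5863 antenna reads, more than any other member.

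Several members had consecutive identifiers. In 5 runs, 11 of the 64 members followed each other in number. In the run of HSALG009409.2, HSALG009410.2 and HSALG009411.2 the antenna mean was 42.6%, 61.8% and 179% of the lowest neural mean. In the pair HSALG029580.1 and HSALG029581.1 it was 40% and 40.6%, and in the pair HSALG001544.2 and HSALG001545.2 it was 178% and 23.9%. Coordinates were not used here, so it is not known whether such neighbours in number lie side by side or are pieces of 1 gene, and the 64 may hold fewer than 64 independent genes.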

How the data were processed

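The deposited values are RPKM with 1 column per library, per the file headers. STAR 2.5.0b and DESeq2 appear in the submitters' processing notes, without a role. Not given in the sources used here are the genome build, annotation, counting and handling of near-identical copies. Per the labels, libraries kept no strand, so antisense overlaps cannot be told apart. Members and lists were chosen with earlier results of these data known.

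From the steps between deposited RPKM values, whole read counts, model lengths and library totals were derived together for 98.9% of the 18589 rows above 0, with every value whole within 6 printed digits plus a relative 1.5e-06. Of counts of 1 to 10 reads, 46.2 to 67.4% per library were even. Intervals and floors cover counting error only, since reads without molecular identifiers need not be independent molecules. On simulated RPKM of 18008 genes the totals of 18 libraries came back, and 96.9% of the recovered rows had all their reads right. In the deposited data rows were kept only where their values came out whole, so wholeness is no separate check.

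Tests used limma 3.58.1 in R 4.3.3 on log2(RPKM + 1) with a mean-variance trend, for rows that reached 1 RPKM in 3 or more libraries, and were tested on simulated data. The pseudocount makes differences of low genes too small. Named genes were the 2 highest and 2 lowest per comparison whose libraries do not overlap, and the extremes of level. Alternatives were other pseudocounts, filters, scalings, weights, voom, a replicate block and each library left out.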

Additional observations from a re-analysis of the deposited data

How the results depend on the processing

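Of 378 alternative values, 342 kept within 1.5 times the count, or within 1 SD for the median percent, and 36 moved further. Some of the 342 could not change, since the median percent uses no fat body or ovary library. A change of direction was not scored. Other scalings changed much of the membership. They gave 45 members (31 shared) by quantile normalization, 61 (28 shared) with trimmed-mean factors, 57 (47 shared) after rescaling every library to 1 sum and 54 (47 shared) with medians.

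Leaving out 1 library in turn gave 52 to 67 members and a median antenna percent of 41.1 to 62.6% (41.1% without antenna replicate 3). Counts of members lower in antenna ran from 16 to 35 against non-visual brain (16 without non-visual brain replicate 3, 19 without antenna replicate 2), 23 to 41 against optic lobe (23 without optic lobe replicate 2, 24 without antenna replicate 2), 8 to 29 against retina (8 without retina replicate 2, 9 without retina replicate 1, 29 without antenna replicate 3), 0 to 1 against fat body, 0 to 1 against ovary, and 4 to 25 against each neural tissue jointly (4 without replicate 1 or 2 of optic lobe or of retina, 25 without antenna replicate 3). Counts higher in antenna ran from 0 to 1 against non-visual brain, 0 to 2 against optic lobe, 0 to 3 against retina, 33 to 44 against fat body, 37 to 44 against ovary and 31 to 40 against both.

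A fit of only the 2 tissues compared called 4, 7 and 2 members lower than non-visual brain, optic lobe and retina, 0 higher than optic lobe and 14 higher than fat body. It has fewer libraries to estimate the spread, and it takes no spread from the other tissues. The fit of all libraries uses 1 spread per gene for all tissues. Yet the median SD of log2(RPKM + 1) over rows at 10 RPKM or more was 1.09 in antenna and 0.421 to 0.513 in the neural tissues. SEs and p-values of the fit of all libraries may thus be too small for antenna. Quantile normalization gave 17 lower than non-visual brain and 2 higher than optic lobe. Trimmed-mean factors gave 20 lower than optic lobe and 33 lower than retina. A pseudocount of 0.1 gave 0 higher than optic lobe and 1 lower than ovary, a pseudocount of 5 or no filter gave 4 lower than each neural tissue, library weights gave 2 higher than optic lobe, and voom gave 0. The cause of these shifts was not tested.

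Whether replicate numbers pair the libraries is not known. Only antenna was set against the other tissues, and low correlations among so few libraries cannot show that pairing is absent. Deviations of same-numbered libraries of antenna and the other tissues correlated at -0.24 to 0.08, and in 0 of 5 tissues did every antenna library correlate best with its own number. A replicate block gave 29, 35 and 13 members lower than non-visual brain, optic lobe and retina and 36 higher than fat body and ovary. Antenna depth limits what can be said of members near its floor.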

Other observations

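Of the 438 XLOC rows, which the rule leaves out, 2 met its limits. XLOC_049575 averaged 36.9 RPKM in non-visual brain, 33.7 in optic lobe, 21.5 in retina and 14.3 in antenna, and 1.93 in fat body. XLOC_007921 averaged 34.3, 43.9 and 31.3 RPKM in the neural tissues and 3.68 in fat body, and was listed at 0 in each antenna library.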
